A study of Mus musculus with 6 samples.

Results

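The 10 genes described here are the protein-coding genes of the mitochondrial genome ND1, ND2, ND4, ND5, ND6, CYTB, COX1, COX2, COX3 and ATP6, read in the hearts of mice on a high-fat diet (HFD) or a normal diet (ND). They were chosen by name alone, as every probe other than controls whose gene name in the array's annotation was exactly one of these names in upper case. Of the 55681 probes on the array, 9 met this rule, 1 for each of 9 genes, and no probe carried the name ATP6. Hearts came from male C57BL/6 mice that started either diet at 4 weeks of age and stayed on it for 4 months. Fat made up 60% of the kcal in the HFD, and ND-fed mice ate standard chow. Each of 6 arrays held the RNA of 1 heart, 3 ND and 3 HFD, labelled with a single dye. In the names of genes ND stands for NADH dehydrogenase, so the hearts are called ND-fed and HFD-fed heart 1, 2 and 3 below.

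Mitochondria keep a small circular genome of their own, which encodes core subunits of respiratory chain complexes I, III and IV and of ATP synthase, while the remaining subunits are encoded in the nucleus and imported. Both strands are transcribed into long RNAs that are cut into the single messages, and ND6 is the protein gene that lies on the strand opposite to all the others. Heart muscle is dense in mitochondria, and their transcripts make up a large part of its RNA. The study measured mitochondrial DNA copy number by PCR of ND1 in hearts of transgenic mice and their littermates under these diets, and the arrays read the transcripts of the same genome.

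The probes differ in strand and in where the array's annotation places them, and 5 of the 9 are shown here in lower case with every G in capitals, 5′ to 3′. ND6 is shown because its strand sets it apart and because its diets did not overlap, ND5 because its probe is the nearest to that of ND6, ND1 because it is the gene of the copy number PCR, and COX2 and COX3 because the annotation places them elsewhere.
ND6: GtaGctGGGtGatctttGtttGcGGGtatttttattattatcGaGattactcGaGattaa
ND5: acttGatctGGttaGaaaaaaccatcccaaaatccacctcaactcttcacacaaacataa
ND1: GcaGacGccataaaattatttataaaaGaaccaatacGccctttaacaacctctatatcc
COX2: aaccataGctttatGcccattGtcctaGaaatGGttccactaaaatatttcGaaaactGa
COX3: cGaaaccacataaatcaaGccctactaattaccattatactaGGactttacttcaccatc
The ND6 probe held 15 G and 6 C, whereas the other 8 held 4 to 8 G and 13 to 18 C, with a GC content between 35% and 38.3% in all 9. Strands of the mitochondrial genome are known to differ in this way. In build mm9, as the files give it, the ND6 probe lies on the minus strand of the mitochondrial chromosome (M) at positions 13552 to 13611, and the ND5 probe on the plus strand at 13402 to 13461, with 90 bases between them. The other probes on the plus strand of M are those of ND1 at 2898 to 2957, ND2 at 4670 to 4729, COX1 at 6650 to 6709, ND4 at 11370 to 11429 and CYTB at 15099 to 15158. The COX2 and COX3 probes are placed by the same annotation on the minus strand of chromosome 1, at 24621739 to 24621798 and 24620286 to 24620345. The probes named ND3, ND4L and ATP8, which are mitochondrial genes outside the 10, lie on this stretch too, as does 1 probe named only by a transcript (ENSMUST00000105091), which was found by its position after values had been seen. This stretch, taken here from the outermost of the named probes at 24619243 to 24621798, lies in what is known as a nuclear copy of mitochondrial sequence. The full extent of the copy was not checked. Signal from the mitochondrial RNA and from this copy cannot be told apart for the COX2 and COX3 probes. Whether probes placed on M also match the copy was not checked. No other probe of the array shared a run of 20 bases with any of the 9 on either strand.

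All 6 arrays lay on 1 slide and were scanned together, where row 1 held HFD-fed hearts 1 and 2 and row 2 held the remaining 4 hearts. On each array 49.2% to 53.0% of the probes stood well above background. Precision is limited by the number of arrays, and no spot was saturated. All 9 probes were well above background on all 6 arrays. The probes other than ND6 were bright, with intensities between 90505 and 297954, at most 38.3% of the value at which a spot saturates. All 10 cardiomyocyte markers looked at were detected, including Myh6, the main myosin heavy chain of the adult mouse heart, and 9 of the 10 overlapped between the diets. HFD-fed heart 2 stood apart from the other hearts in markers of some other cells. It was the lowest heart in 5 of 5 atrial muscle, 8 of 8 fibroblast, 6 of 7 white adipocyte and 7 of 8 macrophage markers tested. Sln, a calcium pump regulator of the atria, had a level of -2.14 there against 3.43 to 7.45 in the other 5 hearts. In the remaining lists HFD-fed heart 2 was lowest in 3 of 5 skeletal muscle, 1 of 4 brown adipocyte, 0 of 8 endothelial and 0 of 10 erythroid markers tested. The median of the 9 transcripts, ND6, its difference to the other transcripts and the medians of the gene lists are also given without this heart. Correlations, ND6 minus ND5 and counts of hearts that did not overlap are not. The part of this heart in the results was otherwise not tested. Below, the level of a probe is the log2 of its intensity relative to the 75th percentile of its array, and log2 fold changes are HFD relative to ND. The diets were compared by a two-sided limma fit of all 27590 probes bright enough to test, and p-values were adjusted over all of them by the Benjamini-Hochberg method. The p-values measure the spread between these hearts only. Fewer cells of a type and less RNA per cell cannot be told apart in whole tissue.

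None of the 9 transcripts passed the adjustment for multiple tests, where 4 of all 27590 probes (0.0145%) did. At an unadjusted p below 0.05, 1 of the 9 (11.1%) was lower in HFD, which was ND6, against 3275 of all probes (11.9%) in either direction and 6.63% lower in HFD. ND6 was also the 1 transcript of the 9 with every HFD-fed heart below every ND-fed heart, which held for 3051 of all probes (11.1%). Both shares are near those of all probes, so the counts give no result about the mitochondrial transcripts as a group. Of the 9 log2 fold changes, 7 were below 0 and 2 above, with a median of -0.040, but with quantile normalization 3 of the 9 were below 0 and the median was 0.037. Single hearts set this median as well, since it was -0.13 without HFD-fed heart 2 (8 of 8 tested below 0) and 0.029 without HFD-fed heart 3 (3 of 8 below 0). The median of all probes was -0.0081 and 52.0% of them were below 0.

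**Figure D1:**
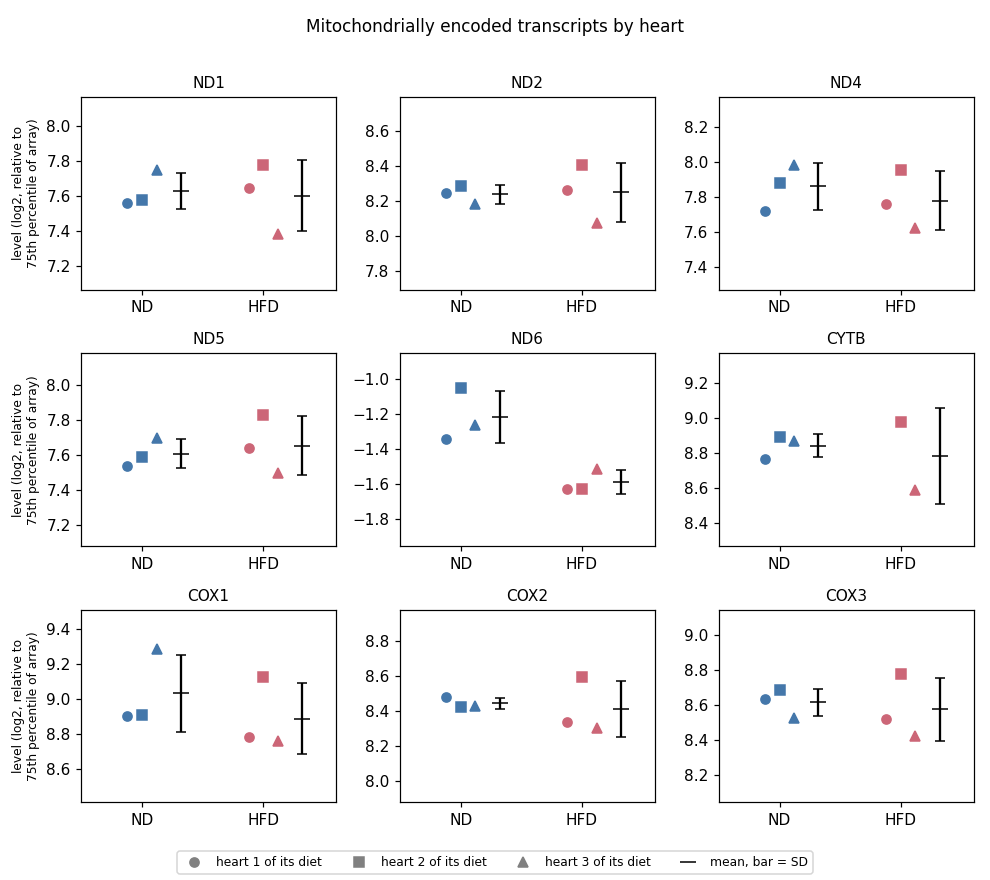
Levels of the 9 mitochondrially encoded transcripts in each heart, as log2 of the intensity over the 75th percentile of its array, with ND in blue, HFD in red and the mean with its SD in black. Each panel spans the same number of log2 units, and only in the ND6 panel do all 3 HFD-fed hearts lie below all 3 ND-fed hearts.

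Complex I, which takes electrons from NADH and pumps protons across the inner membrane, has its membrane arm built from the ND subunits. ND6, a small subunit of this arm, had levels of -1.34, -1.05 and -1.26 in ND-fed hearts 1, 2 and 3, and of -1.63, -1.63 and -1.51 in HFD-fed hearts 1, 2 and 3. The means were -1.22 ± 0.15 for ND and -1.59 ± 0.07 for HFD (SD, n = 3 each). The intensities themselves were 193, 233 and 199 in the ND-fed and 166, 147 and 190 in the HFD-fed hearts, so the groups were apart before scaling as well. These are far above the lowest signals rated well above background, which were 15.6 to 21.1 on the 6 arrays. The log2 fold change was -0.37 (SE 0.10, 95% interval -0.61 to -0.13), which puts the HFD mean at 77.3% of the ND mean (65.6% to 91.1%). In limma the unadjusted p was 0.00854 and the adjusted p 0.271, and its p ranked 868 of all probes tested, counted from the lowest. On row 2 of the slide, which held HFD-fed heart 3 and all ND-fed hearts, the difference was -0.29, with an unadjusted p of 0.0931 and an adjusted p of 0.725 in limma with the row as a term. HFD-fed hearts 1 and 2 were alone on row 1, and no ND-fed heart stands beside them. Without HFD-fed heart 2 the log2 fold change was -0.35 (limma unadjusted p = 0.0281, adjusted p = 0.352).

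ND1, the subunit nearest the part of the complex that reduces ubiquinone, had levels of 7.56, 7.58 and 7.75 in the ND-fed and 7.64, 7.78 and 7.38 in the HFD-fed hearts. The HFD-fed hearts lay on both sides of the ND-fed ones, and the log2 fold change was -0.026 (SE 0.12), or 98.2% of the ND mean (95% interval 79.8% to 121%). ND2, one of the proton-pumping subunits, had levels of 8.25, 8.29 and 8.18 in the ND-fed and 8.26, 8.41 and 8.07 in the HFD-fed hearts, again with the ND-fed hearts in between, and a log2 fold change of 0.011 (SE 0.10). ND4, also a proton-pumping subunit, had levels of 7.72, 7.88 and 7.99 in the ND-fed and 7.76, 7.96 and 7.62 in the HFD-fed hearts, with a log2 fold change of -0.083 (SE 0.12). Its 2 upper HFD-fed hearts lay within the range of the ND-fed ones. ND5, the pumping subunit at the far end of the arm, had levels of 7.53, 7.59 and 7.69 in the ND-fed and 7.64, 7.83 and 7.49 in the HFD-fed hearts. Its log2 fold change of 0.048 (SE 0.11) put HFD at 103% of ND (95% interval 86.5% to 124%), and it was the highest of the 9, although its probe lies closest to that of ND6 on M.

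CYTB encodes cytochrome b, the mitochondrially encoded subunit of complex III, which passes electrons from ubiquinol to cytochrome c. It had levels of 8.76, 8.89 and 8.86 in the ND-fed hearts, and of 8.98 and 8.59 in HFD-fed hearts 2 and 3. The spot of HFD-fed heart 1 was marked as an outlier by the extraction software and left out, so that the value rests on 2 HFD-fed hearts. Its log2 fold change was -0.058 (SE 0.14). With that spot kept (intensity 183022), the log2 fold change was -0.16 with a p of 0.298 in limma, and thus moved by more than 1.5 times while staying above the threshold.

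COX1, COX2 and COX3 encode the core of complex IV, cytochrome c oxidase, which hands electrons to oxygen. COX1, the subunit that holds the heme and copper centre where oxygen is reduced, had levels of 8.90, 8.91 and 9.29 in the ND-fed and 8.78, 9.13 and 8.76 in the HFD-fed hearts. Its spread was the widest of the 8 transcripts other than ND6, with ND-fed heart 3 above all others, and its log2 fold change was -0.14 (SE 0.15), or 90.6% of ND (95% interval 69.9% to 117%). COX2, which receives electrons from cytochrome c, had levels of 8.48, 8.42 and 8.43 in the ND-fed and 8.34, 8.60 and 8.30 in the HFD-fed hearts, with a log2 fold change of -0.031 (SE 0.10). COX3, the third core subunit, had levels of 8.63, 8.69 and 8.53 in the ND-fed and 8.52, 8.78 and 8.43 in the HFD-fed hearts, with a log2 fold change of -0.040 (SE 0.11). For both probes placed on chromosome 1, the ND-fed hearts lay inside the range of the HFD-fed ones.

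Over the 8 transcripts other than ND6, the HFD means were thus 90.6% to 103% of the ND means, and the 95% intervals reached from 69.9% to 124%. Their adjusted p-values in limma lay between 0.763 and 0.980. A p above the threshold does not show that the diets were alike, and the intervals leave room for differences of that size in single transcripts. The 4 probes outside the 10 genes overlapped between the diets in all 4 cases, with log2 fold changes of 0.014 for ND3, 0.033 for ND4L, -0.042 for ATP8 and -0.084 for ENSMUST00000105091, and a lowest unadjusted p of 0.280 in limma. ND3 and ND4L are further complex I subunits, and ATP8 is an ATP synthase subunit whose gene lies next to ATP6.

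**Figure D2:**
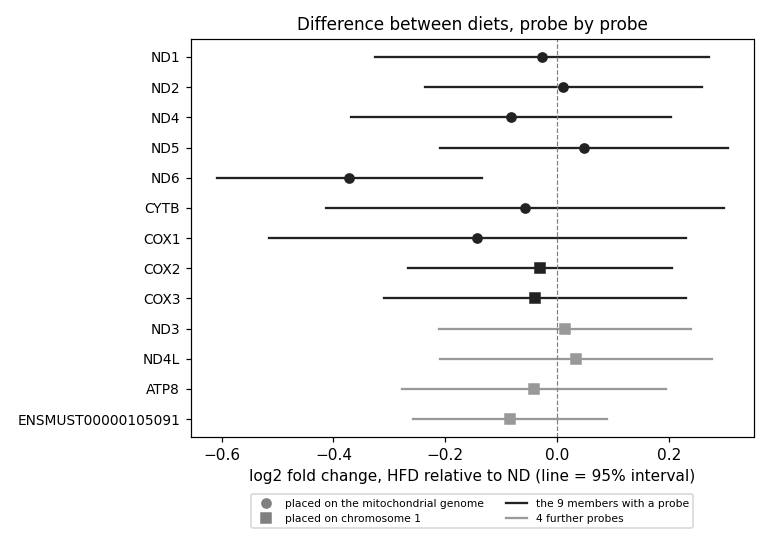
Log2 fold change of HFD relative to ND with its 95% interval for the 9 mitochondrially encoded transcripts (black) and 4 further probes of the mitochondrial genome or its copy (grey), with circles for probes placed on M and squares for those placed on chromosome 1. The interval of ND6, from -0.61 to -0.13, is the one of the 13 that does not cross 0.

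The hearts were ordered alike by most of the transcripts. Of the 8 other than ND6, 6 were highest in HFD-fed heart 2 and all 8 were lowest in HFD-fed heart 3, CYTB among the 5 hearts with a value. Between the levels of the 8, Pearson's r over the 6 hearts (5 where CYTB entered) ranged from 0.29 to 0.92 in 28 pairs, with a median of 0.76, whereas r of ND6 with the others ranged from -0.31 to 0.27. These hearts are also those with the lowest and the highest 75th percentile, 453 in HFD-fed heart 2 and 544 in HFD-fed heart 3, against 477 to 516 in the other 4. Every level of an array shares this percentile. In log2 intensity before scaling, r within the 28 pairs ranged from -0.77 to 0.73, with a median of 0.27. The mean log2 intensity of the 7 transcripts measured on all 6 arrays was 17.09, 17.11 and 17.16 in the ND-fed and 17.15, 17.18 and 17.10 in the HFD-fed hearts before scaling, which differed by 0.020 between the diets (exact permutation test, two-sided, p = 0.6). After scaling the mean was 8.15, 8.19 and 8.26 in the ND-fed and 8.14, 8.35 and 8.01 in the HFD-fed hearts, a difference of -0.038 (exact permutation test, two-sided, p = 0.8). The HFD-fed hearts had an SD of 0.17 here and the ND-fed hearts of 0.06.

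A difference between probes of 1 array does not depend on that scaling, so ND6 was also set against the other transcripts within each heart. The offset itself compares different probes and carries no meaning, and only its difference between the diets is read. ND6 minus the mean of the other 8 was -9.57, -9.33 and -9.60 in the ND-fed and -9.77, -10.06 and -9.60 in the HFD-fed hearts. HFD-fed heart 1 has no CYTB value, so its offset is against 7 transcripts. HFD-fed heart 3 lay within the ND-fed range. The diets differed by -0.30 on the log2 scale, which did not pass an exact permutation test over the 6 hearts (two-sided, p = 0.2), where 3 against 3 cannot go below 0.1. Leaving out HFD-fed heart 2 brought the difference to -0.18 and leaving out HFD-fed heart 3 to -0.41. Over the 7 transcripts measured on all 6 arrays the difference was -0.33 (exact permutation test, two-sided, p = 0.2). ND6 minus ND5 was -8.88, -8.64 and -8.96 in the ND-fed and -9.27, -9.45 and -9.01 in the HFD-fed hearts. All 3 HFD-fed hearts were lower here, with a mean difference of -0.42 (exact permutation test, two-sided, p = 0.1, the smallest these numbers of hearts allow). ND5 was set against ND6 as its nearest neighbour after the values were seen. It had the highest log2 fold change of the 9, so no other single transcript would give a larger difference. This p is therefore no separate result.

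**Figure D3:**
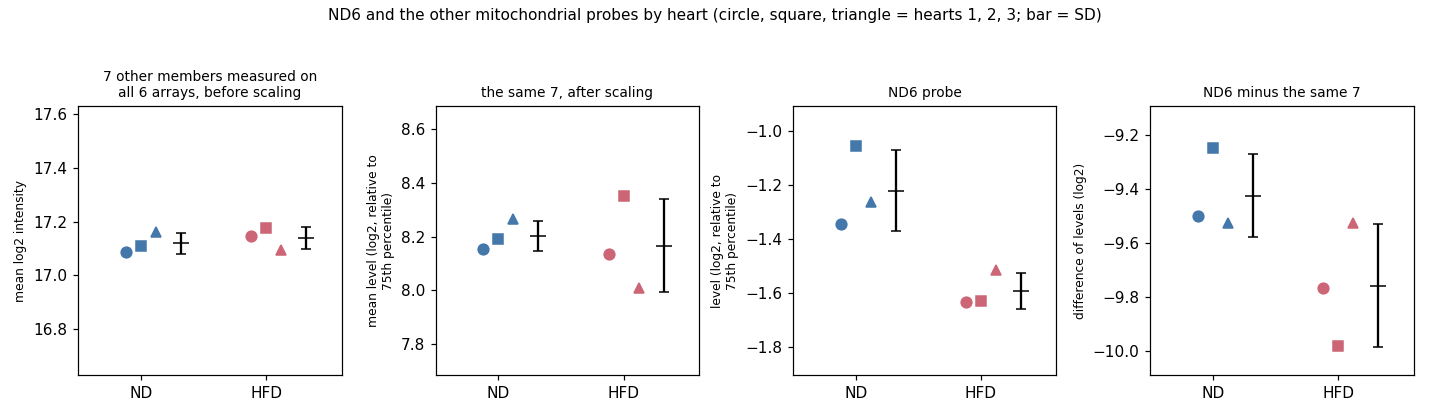
From left to right, the mean of 7 other mitochondrial transcripts in each heart before scaling (log2 intensity) and after it (log2 level), the level of ND6, and ND6 minus the mean of the 7, with ND in blue, HFD in red, the mean with its SD in black, and the same span of log2 units in every panel. The diets overlap in each panel except that of ND6, and HFD-fed heart 3 joins the ND-fed hearts in the last one.

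Of the markers of other cell types, none passed the adjustment. Summed intensities, taken before scaling to the 75th percentile, did not overlap between the diets for 3 of the 8 lists. Of all single probes tested, 11.1% had every HFD-fed heart below every ND-fed heart. That share covers the lower direction only, whereas the brown adipocyte sum was higher in HFD. It also counts scaled levels of single probes, so it is no direct measure for sums over lists. The summed intensity of 10 erythroid markers tested, of 12 listed, was 326392 to 416541 in the ND-fed and 246774 to 313770 in the HFD-fed hearts. At an unadjusted p below 0.05, 7 of the 10 were lower and 1 higher in HFD, where 6.63% of all probes were lower. The summed intensity of 5 skeletal muscle markers tested, of 10 listed, was 43856 to 54587 in the ND-fed and 21989 to 34653 in the HFD-fed hearts. Acta1, skeletal actin, made up at least 93.5% of it in every heart. The skeletal myosins Myh1, Myh2 and Myh4 were too dim to be tested, so this summed intensity mostly reads 1 gene and does not measure skeletal muscle cells. That of 4 brown adipocyte markers tested, of 6 listed, was 21103 to 23620 in the ND-fed and 27269 to 31786 in the HFD-fed hearts. Cidea made up at least 96.0% of this sum, 2 of the 4 markers had a log2 fold change below 0 and 2 above, and Ucp1, which defines these cells, was too dim to be tested. The summed intensities of the cardiomyocyte markers, at 1950290 to 2000180 in the ND-fed and 1924830 to 2075770 in the HFD-fed hearts, overlapped. The part of these cells in the ND6 values was not tested.

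Each complex with a mitochondrially encoded subunit also has nuclear ones, and 42 of these were measured. None passed the adjustment, and 2 were lower and 0 higher at an unadjusted p below 0.05, where 6.63% of all probes were lower. Of the 42, 40 had a log2 fold change below 0, with a median of -0.076, where 52.0% of all probes were below 0. With quantile normalization 23 of the 42 were below 0, with a median of -0.0034. Every HFD-fed heart lay below every ND-fed heart for 2 of 7 subunits in complex I and 0 of 9 in complex III. The same held for 0 of 11 in complex IV and 2 of 15 in ATP synthase, where 11.1% of all probes did so. Among the 7 nuclear core subunits of complex I, with a median of -0.040, the lowest p was that of Ndufs8, an iron-sulfur subunit, at a log2 fold change of -0.23 (SE 0.06, limma adjusted p = 0.287). Its levels were 5.92, 5.84 and 5.92 in the ND-fed and 5.66, 5.69 and 5.65 in the HFD-fed hearts. They did not overlap, which is no separate result for a gene picked by its p. Ndufs7 and Ndufs3, further core subunits, followed at -0.19 and -0.13. In complex III the median of 9 subunits was -0.10, with the lowest p for Uqcrq at -0.15 (limma adjusted p = 0.569), Uqcrc1 at -0.14 and Uqcr10 at -0.13. In complex IV the median of 11 was -0.052, with Cox7a1, the heart and muscle form of its subunit, at -0.16 (limma adjusted p = 0.579), Cox6b1 at -0.11 and Cox5b at -0.10. In ATP synthase, whose mitochondrially encoded subunit ATP6 had no probe, the median of 15 was -0.070, with Atp5d, a subunit of the central stalk, at -0.17 (limma adjusted p = 0.410), Atp5h at -0.13 and Atp5f1 at -0.093. Whether the mitochondrially encoded transcripts differed from their nuclear partners was not tested.

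The proteins that transcribe, process and copy the mitochondrial genome are encoded in the nucleus, and 31 of 34 such genes had a tested probe. None passed the adjustment, and 5 were lower and 0 higher in HFD at an unadjusted p below 0.05, where 6.63% of all probes were lower. Of the 31, 12 did not overlap between the diets, all lower in HFD, where 11.1% of all probes did so. The median log2 fold change was -0.086. The lowest p was that of Mterf2 (Mterfd3 on the array), of the mitochondrial transcription termination factor family, with levels of 3.52, 3.48 and 3.31 in the ND-fed and 3.20, 3.09 and 2.96 in the HFD-fed hearts and a log2 fold change of -0.35 (SE 0.10, limma adjusted p = 0.285). Ptcd2, a pentatricopeptide repeat protein involved in mitochondrial RNA processing, had levels of 2.9991, 3.06 and 3.03 in the ND-fed and 2.80, 2.84 and 2.83 in the HFD-fed hearts, at -0.21 (SE 0.06, limma adjusted p = 0.311). Mterf1a (Mterf on the array), a termination factor, had levels of -0.43, -0.42 and -0.59 in the ND-fed and -0.67, -0.77 and -0.66 in the HFD-fed hearts, at -0.22 (SE 0.08, limma adjusted p = 0.373). The hearts of the diets did not overlap for any of these 3 genes, which were picked for the lowest p of the 31, so this is no separate result.

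**Figure D4:**
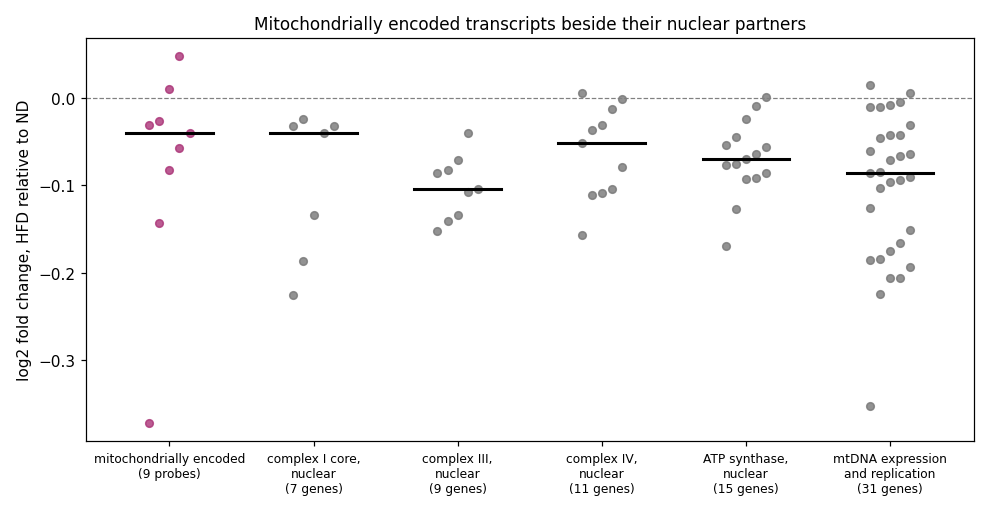
Log2 fold change of HFD relative to ND for the 9 mitochondrially encoded transcripts, for the nuclear subunits of the complexes they belong to and for the nuclear genes of mitochondrial DNA transcription, RNA processing and replication, each point 1 gene and each bar the median. The medians lie between -0.10 and -0.040, ND6 at -0.37 is the lowest point of the first group, and Mterf2 at -0.35 that of the last.

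The levels most like the mean of the 9 transcripts over the 6 hearts, each centred on its own mean, among probes with a gene symbol were those of Cript (Pearson's r of 0.997), which encodes a protein that binds a postsynaptic scaffold, and of Ireb2 (0.979), an iron regulatory protein. Atp2a2, the calcium pump of the sarcoplasmic reticulum, followed at 0.978, then Ldb3, a protein of the sarcomere's Z-disc, at 0.977 and Taf3, a subunit of a general transcription factor, at 0.977. Of 27543 probes compared, 71 (0.258%) had an r above 0.95, 33 of them with a symbol, and all of them share the 6 arrays and their scaling. Among the nuclear genes listed above, Atp5l (0.958), Atp5g1 (0.937) and Atp5f1 (0.936), all ATP synthase subunits, had the highest r. The log2 fold changes of these 8 genes lay between -0.16 for Taf3 and -0.040 for Cript, and none passed the adjustment in limma.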

How the data were processed

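The authors deposited 1-colour Agilent intensities, background-subtracted within each array by Feature Extraction 10.7.1.1 and not normalized between arrays. They also deposited log2 values, for which no normalization is given in the sources used here. Its columns each had a median of 4.56, ranked probes as their own array did (Spearman's rho at least 0.99996, at most 0.954 with any other array) and lay within a median of 0.000131 of quantile-normalized log2 intensities.

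Controls and spots marked as outliers (127 to 190 per array) were left out, spots of 1 probe were averaged, and levels were taken relative to the 75th percentile. A probe entered the test if it was well above background on all arrays of 1 or both diets and had values on at least 2 arrays per diet. Tests were run with limma 3.58.1 (lmFit, eBayes) in R 4.3.3 with jsonlite 2.0.0, statmod 1.5.0 and version 1.17.8 of the data.table package, after being tested on simulated data. The figures used matplotlib 3.10.9 (Python 3.11.15). Other gene lists used 1 probe per gene, the tested one with the highest mean level. Within-heart differences were compared by exact permutation of the 6 hearts. Arrays of 1 diet correlated at r of 0.990 to 0.995 and none was a copy of another, so each heart counts as 1 replicate.

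The members, the other lists and the rules were chosen with earlier results of these data known. Named are every member probe, the 3 genes of lowest p in each of the other lists, and the 5 probes with a gene symbol and 3 list genes most like the mean of the members. Alternatives were quantile normalization, normexp background correction (offset 50), no filter, a filter on all 6 arrays, robust variances with an intensity trend, the deposited log2 values, array weights, the methods' t-test, the row of the slide as a term, the replicate number as a block, the average of a gene's probes, outlier spots kept, the median as scaling and each heart left out in turn. Coordinates and probe sequences are those of the files (mm9). Symbols of the nuclear genes are those of the gene lists or of the array, with the array's name where the 2 differ, and may not be the current ones.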

Additional observations from a re-analysis of the deposited data

How the results depend on the processing

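ND6 stayed lower in HFD under all 19 alternatives, with log2 fold changes from -0.43 to -0.26, unadjusted p-values from 0.00667 to 0.0931 and adjusted p-values from 0.236 to 0.725 in limma or the methods' t-test, and none of the members passed the adjustment under any of them. With the row of the slide as a term no member (0) had an unadjusted p below 0.05, and the median of the members was -0.24. That setting compares HFD-fed heart 3 alone with the ND-fed hearts, since row 1 held no ND-fed heart. This heart was the lowest in all 8 transcripts other than ND6. COX1 and ND4 also kept their direction under all 19, and the direction of the other 6 depended on the setting. Quantile normalization turned COX2 (0.062), COX3 (0.058), CYTB (0.0033) and ND1 (0.037), and the authors' log2 table turned COX2 (0.059), COX3 (0.051) and ND1 (0.035). Normexp turned ND1 (0.0036) and ND2 (-0.0002966). ND2 also turned with array weights (-0.051), the median (-0.016) and the row (-0.16), and ND5 with the row (-0.11). Leaving out 1 heart gave ranges of -0.12 to 0.024 for COX2, -0.14 to 0.035 for COX3, -0.12 to 0.083 for ND1, -0.069 to 0.098 for ND2, -0.039 to 0.13 for ND5, -0.26 to -0.017 for COX1, -0.17 to -0.0047 for ND4 and -0.095 to -0.032 for CYTB. CYTB could not be tested without HFD-fed heart 2 or 3, where it is measured on 1 HFD array. Without HFD-fed heart 2 the list medians were -0.14 for mitochondrial DNA expression (range -0.14 to -0.045), -0.11 for complex I (-0.11 to -0.011), -0.14 for complex IV (-0.14 to -0.0058), -0.13 for ATP synthase (-0.13 to -0.056) and -0.16 for complex III (-0.16 to -0.062). ND6 against the other members ranged from -0.41 to -0.18 with a heart left out. With normexp it was -0.20 (exact permutation test, two-sided, p = 0.2). It was -0.38 with quantile normalization and -0.39 in the authors' log2 table (exact permutation test, two-sided, p = 0.1 for each). The outcome of this test thus depended on the normalization, and 0.1 is the smallest p that 3 against 3 allows. Quantile normalization moved ATP synthase to 0.014 and complex III to -0.027. The probes past the adjustment numbered 40 with normexp, 81 with an intensity trend and robust variances, 8 by the t-test, 7 with array weights and with the median, 2 in the authors' table, 1 with averaged probes, 0 with no filter, with the row and with the replicate block, and 0 to 5 with a heart left out. At an unadjusted p below 0.05 there were 2136 probes with the row and 2182 to 3560 with a heart left out, the fewest without ND-fed heart 1. Same-numbered hearts deviated together with r of -0.15, 0.15 and 0.19, and differently numbered ones with r of -0.30 to 0.19. With 3 hearts per diet these values cannot tell whether the replicate number is more than a label. In limma with the number as a block, ND6 had an unadjusted p of 0.0207 and an adjusted p of 0.390, and 3020 probes had an unadjusted p below 0.05. The cause of these shifts was not tested. All 9 probes were well above background on every array, and 3 hearts per diet limit the precision.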
